A study of Mus musculus with 4 samples.

Results

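The genes described here mark T lymphocytes and natural killer (NK) cells in whole mouse lung: the T cell receptor complex and its signalling partners, naive and regulatory T cell genes, cytotoxic granule genes, NK receptors and the effector factors that T and NK cells share. They were taken from a list of 34 gene symbols, and each gene was measured by the probe set annotated to it alone, or by the brightest such probe set. Of the 34, 30 had a probe set of their own, out of 30707 genes measured in this way. Foxp3 and Klra8 lie on probe sets shared with other genes and are given apart, and Lck and Tcf7 were not analysed here. None of the 30 had more than 1 probe set of its own. The listing rule uses no measured value, but the list was drawn up with earlier results of these data known.

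Lungs of adult, age-matched mice were measured in 2 groups with 2 Affymetrix arrays each. The SCD group, for sickle cell disease, carries the strain label SCD Tg, and the WT group carries the strain label C57/BL6. No treatment is labelled. For the SCD mice the sources used here give neither the transgene and its promoter nor the background strain, and for no mouse do they give sex or batch. The labels number 2 lungs in each genetic group without saying whether they came from different mice, and the p-values measure the spread between these samples, which may be technical.

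T cells recognise antigen through the T cell receptor, whose signal passes through the CD3 chains to the kinases Lck and Zap70 and the adaptor Lat. Naive T cells depend on the factors Tcf7 and Lef1, regulatory T cells on Foxp3, and cytotoxic T cells and NK cells kill by releasing granzymes and perforin. NK cells read their targets through lectin-like receptors, many of them encoded side by side in the NK gene complex, and secrete interferon gamma. The lung holds both resident and circulating T and NK cells.

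Values are log2 expression values, so that a difference of 1 is a doubling. Differences are SCD minus WT with the standard error (SE) from limma, and a gene is said to have risen or fallen only where its Benjamini-Hochberg adjusted p, taken over all 30707 genes, was under 0.05. The antigenomic background probes had medians between 3.26 and 3.40 on the 4 arrays, below every member on every array. The intron controls, which carry signal from unspliced RNA, had medians of 6.31 and 6.28 on the SCD arrays and 6.48 and 6.47 on the WT arrays. Of the 30 members, 16 lay above the intron control median on all 4 arrays, 9 below it on all 4 and 5 on either side. Lung identity was plain in both groups, with median values of 14.18 in SCD and 14.18 in WT over 9 epithelial markers, surfactant genes among them.

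Upstream sequences are shown for 4 of the genes that rose, one pair from the cytotoxic granule group and one from the CD3 group. Each is the stretch of 250 bases before the annotated start, from RefSeq on the GRCm38.p6 build, written 5′ to 3′ on the strand of the gene. Capitals mark the letters GGTGTGA, the core bound by T-box factors such as Tbx21 and Eomes, or AGGAAGT, a sequence bound by ETS factors, on either strand. The 4 genes are those that rose and whose windows held either string, so every window shown has a match. The windows of Klre1 held neither string, and Klrd1 is not shown.
Nkg7, chr7:43436888-43437137, plus strand: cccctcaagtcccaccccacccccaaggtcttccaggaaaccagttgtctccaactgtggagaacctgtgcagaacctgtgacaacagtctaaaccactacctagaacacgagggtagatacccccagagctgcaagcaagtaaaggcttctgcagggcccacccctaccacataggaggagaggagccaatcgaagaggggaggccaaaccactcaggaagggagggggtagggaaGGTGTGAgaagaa
Gzmk, chr13:113180966-113181215, minus strand: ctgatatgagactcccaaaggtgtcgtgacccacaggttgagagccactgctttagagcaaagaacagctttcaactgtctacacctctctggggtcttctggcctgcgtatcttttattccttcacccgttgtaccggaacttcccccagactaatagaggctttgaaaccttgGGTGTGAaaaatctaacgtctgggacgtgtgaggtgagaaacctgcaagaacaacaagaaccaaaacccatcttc
Cd3d, chr9:44981536-44981785, plus strand: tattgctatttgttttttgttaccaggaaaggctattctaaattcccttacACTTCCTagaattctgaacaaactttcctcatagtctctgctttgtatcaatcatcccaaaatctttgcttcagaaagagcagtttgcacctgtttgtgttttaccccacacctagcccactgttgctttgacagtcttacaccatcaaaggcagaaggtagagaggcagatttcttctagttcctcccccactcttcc
Cd3e, chr9:45009612-45009861, minus strand: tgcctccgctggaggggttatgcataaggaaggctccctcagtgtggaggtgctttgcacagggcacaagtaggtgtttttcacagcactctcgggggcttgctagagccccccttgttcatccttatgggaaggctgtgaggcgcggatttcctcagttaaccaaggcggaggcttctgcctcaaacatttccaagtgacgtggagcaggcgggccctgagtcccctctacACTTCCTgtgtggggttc
The window of Nkg7 held GGTGTGA 13 bases before the start and that of Gzmk 75 bases before it. Across all 32851 windows of this length in the table, 3.33% held GGTGTGA on either strand. AGGAAGT was found on the opposite strand 199 bases before the start of Cd3d and 18 bases before that of Cd3e, and 7.69% of all windows held it. The search covered 10 short strings, and the table held windows for 22 of the 30 members; among these, GGTGTGA was found in Nkg7 and Gzmk, and AGGAAGT in 7 genes, Cd247, Cd5, Lef1, Prf1 and Tbx21 beside the CD3 pair. The RUNX string TGTGGTT was found in 5 members, Gzma, Gzmb, Klre1, Klrk1 and Ncr1, and in 4.4% of all windows. These member counts are by gene, but the shares are by window. The 22 members had 29 windows, of which 2 held GGTGTGA, 7 held AGGAAGT and 6 held TGTGGTT. Among the other strings, TTCNNNGAA was in 3 member windows (7.02% of all windows) and GATAAG in 1 (6.55%). TGACTCA was in 1 (4.46%) and CCACACCC in 0 (3.2%). These are matches of letters and not measured sites.

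Granule, NK receptor and CD3 genes rose in SCD lung: the granule genes Gzmk and Nkg7, the NK receptor genes Klrd1 and Klre1, and the CD3 chain genes Cd3d and Cd3e. The count is 6 of 30 members higher, 0 lower and 24 not passing. Over all genes, 3.1% passed in either direction, 2.47% upward and 0.635% downward. All genes are a dimmer set than the members. Of the 30707, 16623 lay below the intron controls on every array, against 9 of the 30 members. With protein-coding genes alone, 1247 of 19232 passed, 924 of them upward, with 8 of the 30 members. Without the dimmest 50% of genes, 1359 of 15353 passed, 1038 of them upward, with 8 of the 25 members left. The members' median difference was 0.34 on the log2 scale, against 0.00 over all genes, and 25 of the 30 members had a difference above 0. Both SCD arrays lay above both WT arrays for 18 members and below them for 2, and 10 overlapped. Among all genes, 25.3% had both SCD arrays above and 22.5% both below. In whole lung, more cells of a type and more RNA per cell cannot be told apart.

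These calls depended on single arrays and on scaling. The differences of the 6 genes ran from 0.57 (Cd3e) to 1.34 (Cd3d) over the 16 alternatives. Only the scaling settings could have turned their sign. Leaving out 1 array could not, since both SCD arrays lay above both WT arrays for each of the 6. The remaining settings left these differences unchanged by construction. Without WT replicate 1, limma called 2 members (Klrd1 and Nkg7), and without WT replicate 2 it called 4 (Cd3d, Gzmk, Klrd1 and Nkg7). Without SCD replicate 1 or without SCD replicate 2 it called 0 members and 0 genes of any kind; at an unadjusted p under 0.05 there were 3308 genes with 10 members without SCD replicate 1, and 3271 genes with 11 members without SCD replicate 2. With the 0.20 shift between groups of the exon controls taken off the SCD arrays, which moved the median of all genes to -0.19, 4 members remained called (Cd3d, Gzmk, Klrd1 and Nkg7). That setting also moved the share of all calls that were higher to 47.8%, against 79.5% without it.

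**Figure D1:**
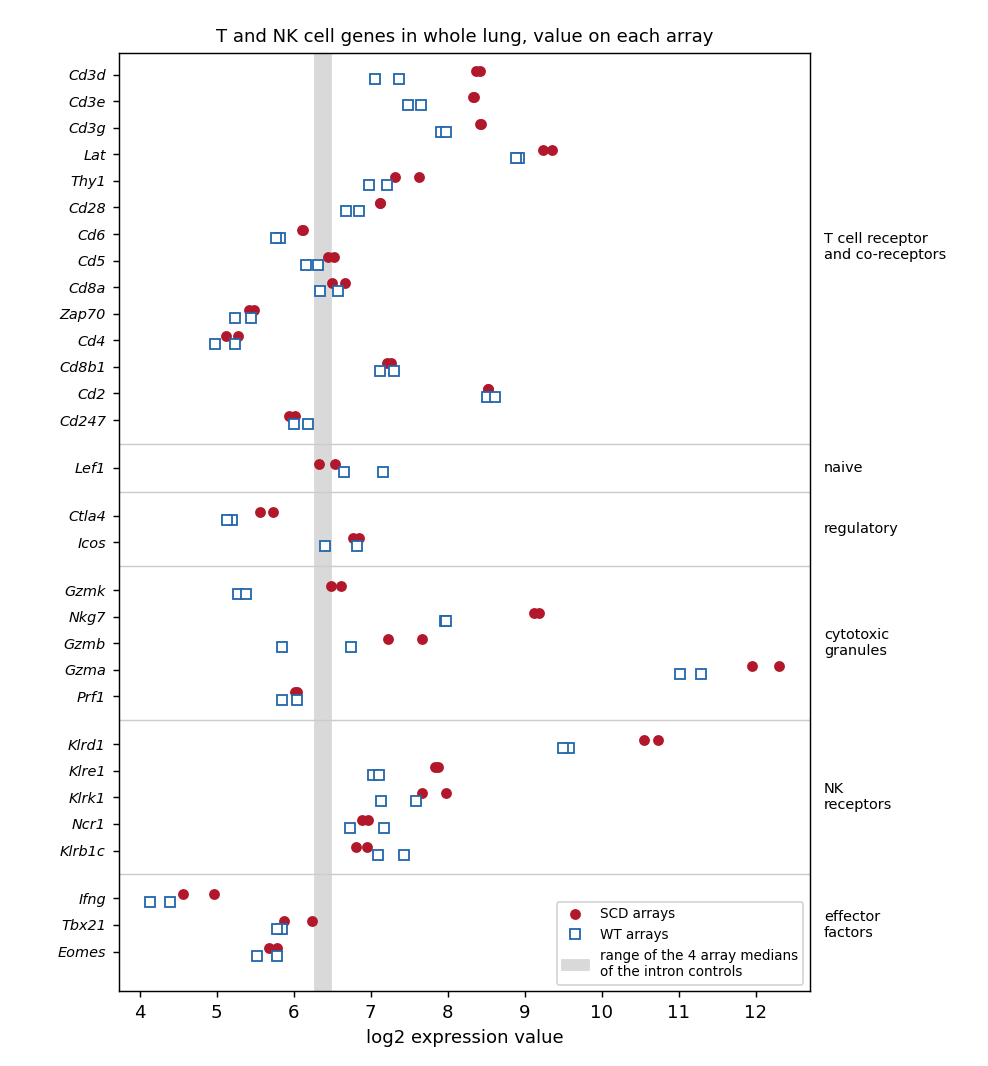
Log2 expression value (x axis) of each of the 30 T and NK cell genes on each array, with SCD arrays as filled circles and WT arrays as open squares; the grey band spans the medians of the intron controls on the 4 arrays. SCD arrays lie to the right of both WT arrays for 18 genes, with Gzma the brightest member and Ifng the dimmest.

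Among the T cell receptor genes, the calls fell on 2 CD3 chains; differences between genes or gene groups were not tested here or below. Cd3d, which encodes the CD3 delta chain, had values of 8.42 and 8.37 in SCD lungs, against 7.05 and 7.37 in WT lungs. It rose by 1.18 ± 0.14 (2.27-fold, adjusted p = 0.0204 in limma). Both SCD arrays lay above both WT arrays, by about 1 log2 unit over the higher of the WT arrays. Cd3e, the CD3 epsilon chain, had values of 8.34 and 8.33 in SCD lungs and 7.65 and 7.48 in WT lungs, and rose by 0.77 ± 0.11 (1.71-fold, limma adjusted p = 0.0348). Its call was lost when the exon control shift was removed (adjusted p = 0.0651) or the intensity trend left out (0.0527). Cd3g, the CD3 gamma chain, read 8.43 and 8.42 in SCD lungs and 7.91 and 7.98 in WT lungs, a difference of 0.48 ± 0.10 that did not pass (limma adjusted p = 0.0838). The groups did not overlap for any of these 3 genes, which lie next to each other on chromosome 9 with no other protein-coding gene between them. Cd247, which encodes the zeta chain of the same complex and lies on chromosome 1, did not pass: it read 6.02 and 5.94 in SCD lungs and 6.18 and 5.997 in WT lungs, with overlapping groups and a difference of -0.11 ± 0.12.

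The T cell co-receptor genes showed no difference beyond their spread. Cd4, the helper T cell co-receptor, had 5.12 and 5.28 in SCD lungs and 4.98 and 5.24 in WT lungs, below the intron controls on every array. Cd8a had 6.50 and 6.67 in SCD lungs and 6.34 and 6.57 in WT lungs, and Cd8b1, the other chain of the cytotoxic T cell co-receptor, 7.26 and 7.21 in SCD lungs and 7.12 and 7.30 in WT lungs. The groups overlapped for all 3 genes, and the differences were 0.08 ± 0.14 for Cd4, 0.13 ± 0.14 for Cd8a and 0.03 ± 0.11 for Cd8b1. With the exon control shift removed these 3 differences turned to -0.11, -0.07 and -0.17.

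Of the signalling and co-stimulatory genes, none passed. Zap70, the kinase that binds phosphorylated CD3 chains, overlapped between groups (0.12 ± 0.13, or -0.08 with the exon control shift removed). The adaptor gene Lat had 9.24 and 9.36 in SCD lungs and 8.93 and 8.88 in WT lungs, with no overlap and a difference of 0.39 ± 0.10 (limma adjusted p = 0.136). Cd28, the main co-stimulatory receptor, read 7.12 and 7.12 in SCD lungs and 6.68 and 6.85 in WT lungs, a difference of 0.35 ± 0.11 (limma adjusted p = 0.218). The scavenger-type receptor genes Cd5 and Cd6, neighbours on chromosome 19 whose products dampen T cell receptor signals, differed by 0.25 ± 0.12 and 0.32 ± 0.11, and the surface marker gene Thy1 by 0.38 ± 0.16. All 3 had both SCD arrays above both WT arrays. The adhesion receptor gene Cd2, carried by T and NK cells alike, had 8.53 and 8.52 in SCD lungs and 8.51 and 8.62 in WT lungs, which overlapped (-0.04 ± 0.10). In this group of 14 genes, 2 rose and 12 missed the threshold; the median difference was 0.28.

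The naive T cell factor gene Lef1 had the lowest difference of the 30. It read 6.53 and 6.33 in SCD lungs and 6.66 and 7.16 in WT lungs. Both SCD arrays lay below both WT arrays, but the WT arrays were far apart, and the difference of -0.47 ± 0.20 did not pass (limma adjusted p = 0.328). Of 17 further genes of naive and memory T cells, 1 passed, upward, and 16 missed the threshold. Their median difference was 0.01, but the list was split. Both SCD arrays lay below both WT arrays for 7 of the 17 and above them for 5, against 22.5% and 25.3% of all genes. At an unadjusted p under 0.05 there were 10 of the 17, against 5132 of all 30707 genes. These included Ets1 and Foxo1, with differences below 0, and Klf2, above 0. Their mean values in WT lungs were 10.13, 10.62 and 10.49, brighter than the 3 CD3 genes. Which cell types gave the values of the 17 genes was not tested. The 1 gene that passed, Ly6c2 (1.55 ± 0.05), is also a defining gene of inflammatory monocytes and is counted among the monocyte markers below. The survival receptor gene Il7r (0.22 ± 0.21) and the lymph node homing receptor gene Ccr7 (-0.07 ± 0.15) did not pass.

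Regulatory and activated T cell genes did not pass. Ctla4, which encodes an inhibitory receptor of regulatory and activated T cells, had 5.73 and 5.57 in SCD lungs and 5.19 and 5.14 in WT lungs, all below the intron controls. The groups did not overlap, and the difference was 0.48 ± 0.12 (limma adjusted p = 0.133). Icos, a co-stimulatory receptor gene next to Ctla4 and Cd28 on chromosome 1, had 6.85 and 6.77 in SCD lungs and 6.82 and 6.41 in WT lungs, which overlapped (0.20 ± 0.17). The probe set that Foxp3, the defining factor of regulatory T cells, shares with Flicr read 5.58 and 5.62 in SCD lungs and 5.44 and 5.44 in WT lungs, a difference of 0.16 ± 0.12 that did not pass in limma over every transcript cluster (adjusted p = 0.647) and cannot be assigned to either gene. Of 23 further regulatory T cell and checkpoint genes, 1 rose and 0 fell, with a median difference of 0.10. That gene was Cd226, an activating receptor of NK and T cells, at 1.07 ± 0.15 (limma adjusted p = 0.0352, but 0.0552 when the exon control shift was removed and 0.052 with no intensity trend). The interleukin 2 receptor gene Il2ra stood at 0.17 ± 0.12.

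Cytotoxic granule genes had the highest median difference of the member groups with more than 1 gene, 1.15 over 5 genes, 2 of which rose. Nkg7, a granule membrane protein gene of NK and cytotoxic T cells, had 9.18 and 9.12 in SCD lungs and 7.96 and 7.98 in WT lungs. It rose by 1.18 ± 0.09 (2.27-fold, limma adjusted p = 0.0078) and the arrays of each group lay close together. Gzmk, the granzyme K gene, had 6.48 and 6.61 in SCD lungs and 5.27 and 5.38 in WT lungs, and rose by 1.22 ± 0.12 (2.33-fold, limma adjusted p = 0.0117). The WT values of Gzmk lay below the intron controls, and the SCD values were close to them.

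Its neighbour on chromosome 13, the granzyme A gene Gzma, was the brightest member, with 11.95 and 12.30 in SCD lungs and 11.29 and 11.02 in WT lungs. The groups did not overlap, and the difference of 0.97 ± 0.16 just missed the threshold (limma adjusted p = 0.0510); it passed with equal array medians (adjusted p = 0.0387) and with dim genes left out. Gzmb, the granzyme B gene, had 7.66 and 7.22 in SCD lungs and 5.85 and 6.74 in WT lungs. Its difference was as large, 1.15 ± 0.33, but the WT arrays were far apart and it did not pass (limma adjusted p = 0.176). Prf1, which encodes the pore-forming protein perforin, had 6.01 and 6.04 in SCD lungs and 5.85 and 6.05 in WT lungs, with overlapping groups and a difference of 0.08 ± 0.12 that turned to -0.12 with the exon control shift removed. The other 5 granzyme genes with probe sets of their own had differences from -0.11 (Gzmg) to 0.27 (Gzmm).

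Of 5 NK receptor genes, 2 rose, none fell and 3 missed the threshold. Klrd1, which encodes CD94, the common partner of the NKG2 receptors, had 10.55 and 10.73 in SCD lungs and 9.57 and 9.50 in WT lungs. It rose by 1.11 ± 0.10 (2.15-fold, limma adjusted p = 0.0110). Klre1, its neighbour on chromosome 6, had 7.87 and 7.84 in SCD lungs and 7.02 and 7.11 in WT lungs, and rose by 0.79 ± 0.10 (1.73-fold, limma adjusted p = 0.0269; 0.0535 with the exon control shift removed). Klrk1, which encodes the activating receptor NKG2D and lies next to Klrd1, had 7.66 and 7.98 in SCD lungs and 7.14 and 7.59 in WT lungs. The groups did not overlap, but the spread within each was wide, and the difference of 0.46 ± 0.20 did not pass.

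The other NK receptor genes did not pass. Klrb1c, which encodes the NK1.1 antigen used to stain NK cells in C57BL/6 mice, had 6.95 and 6.81 in SCD lungs and 7.44 and 7.10 in WT lungs, with both SCD arrays lower and a difference of -0.39 ± 0.15 (limma adjusted p = 0.302). Ncr1, which encodes NKp46, a receptor largely restricted to NK cells and some innate lymphoid cells, had 6.89 and 6.96 in SCD lungs and 6.73 and 7.17 in WT lungs. The SCD values lay between the WT values (-0.02 ± 0.17), and the sign turned with equal array medians (0.01). The probe set of Klra8, the Ly49H receptor gene, is shared with Klra11-ps and Klra14-ps. It had 7.96 and 8.12 in SCD lungs and 8.24 and 8.54 in WT lungs, a difference of -0.35 ± 0.16 that did not pass in limma over every transcript cluster (adjusted p = 0.44).

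**Figure D2:**
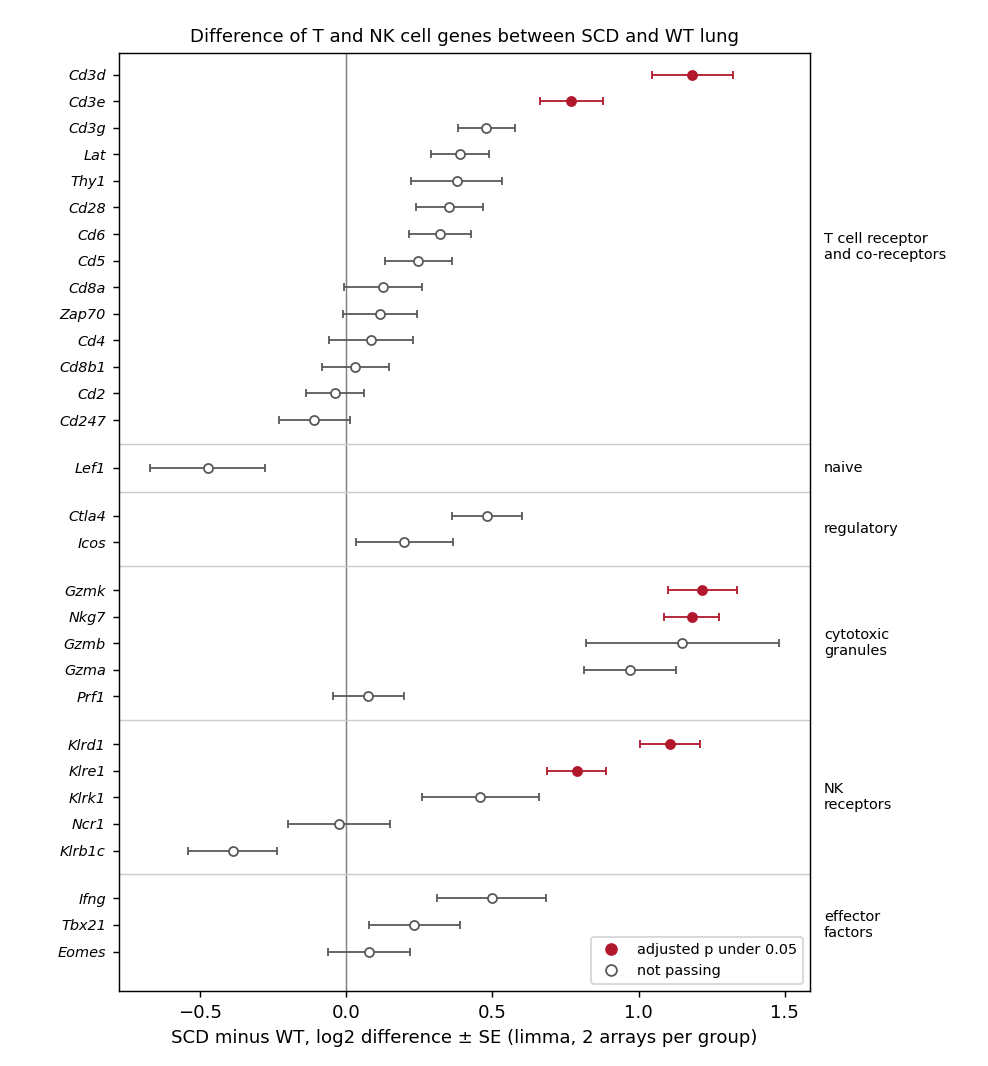
Difference of each member between SCD and WT lung on the log2 scale (x axis, SCD minus WT), with bars for the limma SE; filled circles passed an adjusted p of 0.05. The 6 genes that rose are Cd3d, Cd3e, Gzmk, Nkg7, Klrd1 and Klre1, and Lef1 and Klrb1c have the lowest differences, at -0.47 and -0.39.

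Klrd1, Klre1, Klrk1, Klrb1c and Klra8 all belong to the NK gene complex, whose Klra and Klrb genes are known to differ in number and sequence between inbred mouse strains. Ordered as in the RefSeq table from Klrb1a to Klra2, 31 genes (Klr, Clec2 and Cd69) had probe sets of their own, and the stretches described next were drawn after their values were seen. The 7 genes from Klre1 to Klri1 (Klre1, Klrd1, Klrk1, Klrc3, Klrc2, Klrc1 and Klri1) all had differences above 0, with a median of 0.59. Klrc1, which encodes the inhibitory receptor NKG2A that pairs with CD94, had 8.94 and 8.76 in SCD lungs and 8.18 and 8.11 in WT lungs. It rose by 0.70 ± 0.11 (limma adjusted p = 0.0467), a call that ended when the exon control shift was removed (adjusted p = 0.0842) or the intensity trend left out (0.0699). Klri1 stood at 0.59 ± 0.12 and did not pass (limma adjusted p = 0.0828).

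On either side of that stretch the differences mostly lay below 0. Of the 15 genes before Klre1, 12 had differences below 0, with a median of -0.22, and of the 9 genes after Klri1, 8 did, with a median of -0.27. None of these 24 passed in limma. Among the Ly49 genes, Klra7 had 6.82 and 6.81 in SCD lungs and 7.07 and 6.87 in WT lungs (-0.15 ± 0.12). Klra16, a Ly49 gene outside the ordered genes, had 6.01 and 6.18 in SCD lungs and 5.60 and 5.40 in WT lungs, all below the intron controls. Its difference of 0.60 ± 0.13 did not pass (limma adjusted p = 0.1055). Of the 8 Ly49 genes with probe sets of their own, 6 had differences below 0. The genes of this complex are related in sequence, so that a probe set may take up transcripts of a neighbour, and a difference in gene sequence between strains and a difference in expression cannot be told apart here. Klrg1, a receptor gene of mature NK and effector T cells outside the ordered stretch, had 6.08 and 6.18 in SCD lungs and 5.47 and 5.35 in WT lungs, and a difference of 0.72 ± 0.12 that just missed the threshold (limma adjusted p = 0.051).

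**Figure D3:**
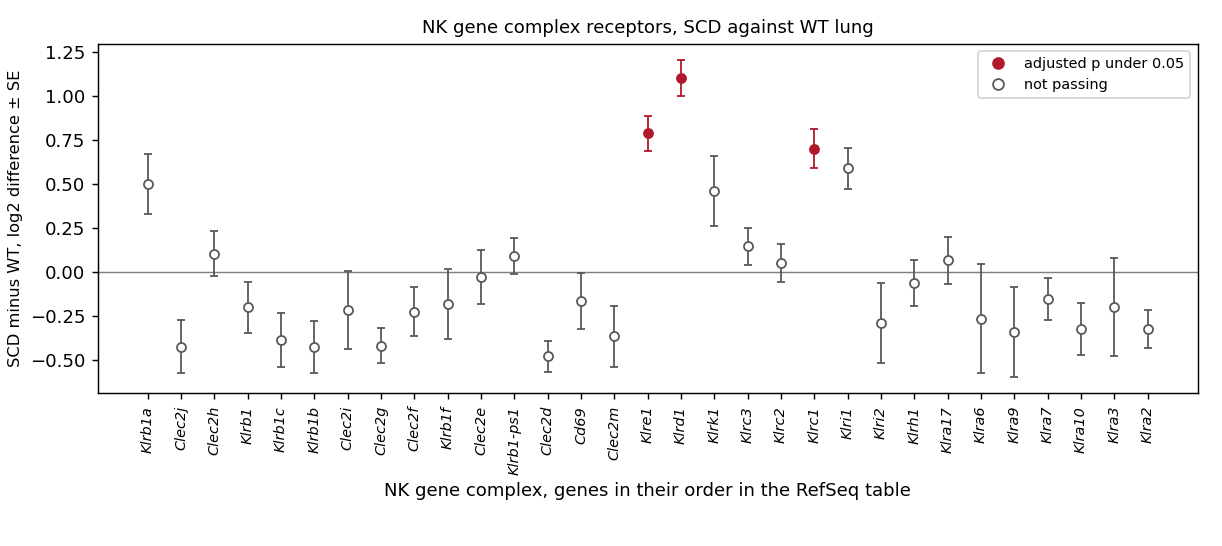
Difference between SCD and WT lung on the log2 scale (y axis, SCD minus WT, bars for the limma SE) of 31 NK gene complex genes, in their order in the RefSeq table (x axis, not to scale). The 7 genes from Klre1 to Klri1 lie above 0, and 20 of the other 24 lie below it.

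The effector factors did not pass. Eomes and Tbx21, the T-box factors that direct cytotoxic and NK cell programmes, had differences of 0.08 ± 0.14 and 0.23 ± 0.16. Eomes had 5.68 and 5.79 in SCD lungs and 5.79 and 5.52 in WT lungs, which overlapped, and its difference turned to -0.12 with the exon control shift removed. Tbx21 had 5.87 and 6.23 in SCD lungs and 5.85 and 5.79 in WT lungs, so that 1 SCD array lay apart from the other 3 arrays. Ifng, the interferon gamma gene, was the dimmest member, with 4.96 and 4.57 in SCD lungs and 4.40 and 4.13 in WT lungs. Its groups did not overlap (0.50 ± 0.19, limma adjusted p = 0.282), and all 3 genes lay below the intron controls on every array.

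Of 41 further genes of cytotoxic and NK cells, 5 rose and none fell; the median difference of the 41 was 0.21. The chemokine gene Ccl5, stored and secreted by cytotoxic lymphocytes, had 12.83 and 13.17 in SCD lungs and 11.08 and 11.40 in WT lungs, and rose by 1.76 ± 0.16 (limma adjusted p = 0.011). Cst7, a cystatin gene whose product controls granule proteases, rose by 1.18 ± 0.15, the interleukin 18 receptor chain gene Il18rap by 0.93 ± 0.14 and Id2, a factor needed for NK cells and broadly expressed in lung, by 0.70 ± 0.08; Klrc1, given above, was the fifth. Without the intensity trend, Il18rap and Id2 lost their calls (adjusted p of 0.0575 and 0.0581); Il18rap also lost its call under the exon control setting (0.0654) and Id2 under repeated quantile normalization (0.0687). Of 28 further T cell receptor signalling genes, 2 rose and 0 fell, with a median of 0.12. They were Malt1, the protease of the complex that links antigen receptors to NF-kB (0.98 ± 0.09), and the phosphatase gene Ptpn22 (0.82 ± 0.09), both also expressed by myeloid cells. Among 19 genes of helper T cells, the chemokine receptor gene Ccr4 rose (0.75 ± 0.11) with values below the intron controls on all 4 arrays, a call that ended when the exon control shift was removed (adjusted p = 0.0737), and the median was 0.04.

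Of 138 variable and joining segments with probe sets of their own, a group taken by symbol after the member values were seen, 1 passed, upward (0.725%, against 3.1% of all genes in either direction), and the median difference was -0.07. The segment that rose, Trav12-2, had 6.11 and 6.59 in SCD lungs and 5.17 and 4.84 in WT lungs (1.34 ± 0.21, limma adjusted p = 0.046); removing the exon control shift or leaving out the intensity trend ended its call (adjusted p of 0.0607 and 0.0617). These probe sets were dim, with 103 of 138 below the intron controls on all 4 arrays, and many segments are near-identical copies of each other.

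**Figure D4:**
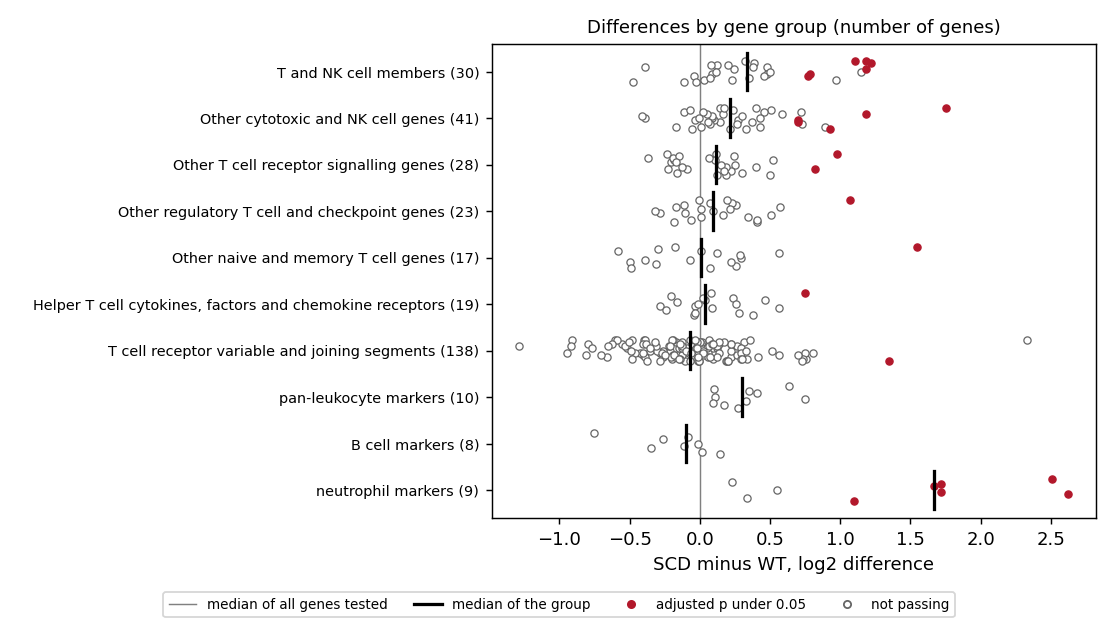
Differences between SCD and WT lung on the log2 scale (x axis, SCD minus WT) of the members, of 5 other T and NK cell gene groups (cytotoxic and NK, T cell receptor signalling, regulatory, naive and helper), of all T cell receptor segments and of pan-leukocyte, B cell and neutrophil markers; each point is a gene, filled where it passed an adjusted p of 0.05, black bars are group medians and the grey line is the median of all genes. The medians of the 10 plotted groups run from -0.10 for 8 B cell markers to 1.67 for 9 neutrophil markers, with the 30 members at 0.34.

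Of 18 genes of the interferon gamma response, 3 rose and 0 fell, with a median of 0.15: the chemokine genes Cxcl9 (3.73 ± 0.20) and Cxcl10 (1.18 ± 0.12), whose products draw T and NK cells through the receptor CXCR3, and the MHC class II gene H2-Ab1 (0.96 ± 0.11). Cxcl10 lay below the intron controls on all 4 arrays, and Cxcl9 on the WT arrays. Among 13 genes of cytokines and chemokines that sustain or draw T and NK cells, the alarmin gene Il33 rose (2.39 ± 0.10) and 12 did not pass, among them Il15, on which NK cells depend (-0.06 ± 0.11). Of 6 measured markers of type 2 innate lymphoid and gamma delta T cells, the factor gene Zbtb16 rose (0.90 ± 0.13), a call that ended when the exon control shift was removed (adjusted p = 0.0585) or the intensity trend left out (0.0541). Of these 6 markers, 4 had differences below 0, and the median was -0.08.

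Markers of other cell types passed in both directions. The pan-leukocyte gene Ptprc, which encodes CD45, had 12.00 and 12.09 in SCD lungs and 11.72 and 11.71 in WT lungs (0.33 ± 0.08, limma adjusted p = 0.117). Over all 10 pan-leukocyte markers, 0 passed in limma (4 at an unadjusted p under 0.05), the median difference was 0.30, and the sum of their values on the linear scale was 11875 and 12472 in SCD lungs and 8966 and 9589 in WT lungs. Over the 30 members the same sum was 10307 and 11626 in SCD lungs and 6755 and 6510 in WT lungs, with Gzma, which did not pass, the largest part of it. Leaving out the brightest gene of each list, a choice made after seeing the values, the sum was 6348 and 6581 in SCD lungs and 4248 and 4432 in WT lungs over the members without Gzma. Over the pan-leukocyte markers without Ptprc it was 7767 and 8126 in SCD lungs and 5594 and 6242 in WT lungs. Among the members left without Gzma, the called gene Klrd1 was the brightest and so weighs most in their sum. It read 10.55 and 10.73 in SCD lungs and 9.57 and 9.50 in WT lungs. Of 9 neutrophil markers, 6 rose (median 1.67), and of 9 monocyte markers, Ly6c2 and Ccr2 rose (median 0.35). Of 7 plasma cell markers, Jchain (3.30 ± 0.11) and Xbp1 (0.71 ± 0.08) rose (median 0.26). Of 5 lymphoid follicle markers, Cxcl13 rose (1.78 ± 0.13), but 3 had differences below 0 and the median was -0.03. Calls in the other direction fell on Tek (-1.94 ± 0.08) and Cdh5 (-0.47 ± 0.08) among 7 endothelial markers, 3 of which had differences above 0 (median -0.37). Among 7 mesenchymal markers, Col1a1 fell (-0.64 ± 0.10), but 3 had differences above 0 and the median was -0.15. Among 6 markers of mast cells and basophils, Kit fell (-2.18 ± 0.09), the other 5 did not pass and the median was -0.05. Kit was the brightest of the 6, with 10.31 and 10.36 in WT lungs, and which cell type gave its value was not tested. Of 8 dendritic cell markers, 0 passed in limma (4 at an unadjusted p under 0.05, median -0.02), and of 9 epithelial markers, 0 passed (2 at an unadjusted p under 0.05, median 0.00). Of 8 B cell markers 0 passed in limma (2 at an unadjusted p under 0.05), with a median of -0.10, and the same held for 5 genes of immature thymic T cells (1 at an unadjusted p under 0.05, median -0.10), which all lay below the intron controls on every array. The epithelial markers Sftpc and Scgb1a1 read 19.93, the highest value of all, on every array, and the monocyte marker Lyz2 read 19.75 on every array. Their differences of 0 therefore say nothing about these cells. The part of the other cell types in the members' values was not tested.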

How the data were processed

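Whole lung RNA of 2 SCD and 2 WT samples was measured on Affymetrix arrays after biotin labelling, per the labels' protocols. The deposited table gives each probe set a log2 value on every array; the scale was read from the values (1.72 to 19.93). Affymetrix Expression Console, Partek and RMA are named without versions or order, per the submitters' processing notes. Groups came from the sample titles. The platform annotation paired probe sets with genes and the RefSeq table of GRCm38.p6 updated the symbols, giving 30707 genes, each at its brightest probe set with 1 gene. SCD was compared with WT by limma 3.58.1 in R 4.3.3 (lmFit, eBayes with an intensity trend, group as the only term, two-sided), adjusted over all genes. No filter on dim genes was applied. Tested on 5 simulated data sets of this comparison, each of 30707 genes, limma found 17.8% of genes shifted by 1 log2 unit and 85.4% of those shifted by 2, with 4.8 false calls on average. Fewer genes were shifted in each simulated set than the 952 called in the data, so these shares need not carry over to the data. Every measured member was named; of the other lists, the genes that passed, up to 5 by p, and some genes fixed by name. Members and lists were chosen with earlier results of these data known. Alternatives changed the filter, the scaling, the variance model, the replicate block and the arrays included. Having 2 arrays per group limits the precision throughout.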

Additional observations from a re-analysis of the deposited data

How the results depend on the processing

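With 2 arrays per group, the count of 6 members called was 5 with the replicate block and without the intensity trend, 6 with robust eBayes, with probe sets averaged per gene and with repeated quantile normalization, 7 with equal array medians, without the dimmest 25% of genes and without genes of identical value, 8 without the dimmest 50% of genes, with protein-coding genes alone and at an adjusted p of 0.1, and 4 with the exon control shift removed. Leaving out 1 array in turn gave 0 to 4 members and 0 to 786 genes in all, against 952 with all arrays; the lone array left in a group was assumed to vary like the others. At an adjusted p of 0.1, limma called 1756 genes. The replicate numbers share only a number: the deviations of same-numbered arrays correlated at -0.002 across genes, and the replicate block gave 969 calls and ended the calls of Cd3e, Klrc1, Ccr4 and Trav12-2 (adjusted p of 0.0518, 0.0564, 0.0685 and 0.0548). Over 54 named genes and 16 alternatives, 852 values were compared with the main result. Of these, 730 kept their direction and side of the threshold, and 85 kept their direction and lost the call. Another 17 gained the call, and 20 turned their sign, all 20 for genes that had not passed. Alternatives that change only the variance model, the threshold, the genes included or the replicate block leave each difference unchanged. The direction was kept there by construction. The sign turned with the exon control shift removed for Cd4 (-0.11), Cd8a (-0.071), Cd8b1 (-0.17), Zap70 (-0.080), Prf1 (-0.12), Eomes (-0.12) and Il2ra (-0.028), and for Ncr1 with repeated quantile normalization (0.01) and equal array medians (0.0063). Taking 1 amount off every SCD value lowers every difference by construction; the cause of the other changes was not tested. Leaving out 1 array in turn, the difference spanned 0 for Cd4 (-0.044 to 0.21), Cd8b1 (-0.059 to 0.12), Cd2 (-0.095 to 0.017), Icos (-0.0074 to 0.40), Prf1 (-0.025 to 0.18), Ncr1 (-0.25 to 0.20), Eomes (-0.055 to 0.21), Il7r (-0.058 to 0.50), Ccr7 (-0.26 to 0.13) and Il15 (-0.13 to 0.0015). On at least 1 array, 14 of the 30 members lay below the intron controls, and their values are the least certain.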
